A study of Saccharomyces cerevisiae with 4 samples.

Results

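The 10 genes described here encode enzymes of ergosterol synthesis. They were taken by their ORF names: YML075C (HMG1), YLR450W (HMG2), YHR190W (ERG9), YGR175C (ERG1), YHR007C (ERG11), YGR060W (ERG25), YML008C (ERG6), YMR202W (ERG2), YLR056W (ERG3) and YMR015C (ERG5). All 10 were among the 6348 ORFs listed in any library, and all 10 passed the filter on low counts. By the R64 annotation of the S288C strain they lie on chromosomes VII, VIII, XII and XIII. The study asked which transcripts change in relative abundance with ploidy. It sequenced poly(A) RNA from tetraploid (MATaaaa) and haploid (MATa) cells of the budding yeast background Σ1278b, with 2 cultures of each, in mid-log phase at 30°C in synthetic complete medium with 2% glucose. The tetraploid strain was isogenic to the haploid one, and both carried the markers ura3-52, leu2::hisG and his3::hisG. Each ploidy was represented by 1 strain, so that the spread between its cultures does not cover differences between independently made strains. Tetraploid A and haploid A formed pair A, and tetraploid B and haploid B formed pair B.

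Ergosterol is the main sterol of yeast membranes and is most abundant in the plasma membrane. Its synthesis starts from acetyl-CoA through mevalonate and the isoprenoid farnesyl diphosphate, passes through squalene and lanosterol, and ends with a series of changes to the sterol rings and side chain. Several steps need oxygen or heme, and many of the genes are controlled by the sterol-sensing transcription factors Upc2 and Ecm22. The enzymes after squalene are targets of antifungal drugs: terbinafine inhibits Erg1 and the azoles inhibit Erg11.

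The libraries held 4133193 and 4036830 reads on ORFs in tetraploids A and B, and 3735445 and 3612527 in haploids A and B. The 10 genes took 0.542% (95% Wilson interval 0.535 to 0.549) and 0.524% (0.517 to 0.531) of these reads in tetraploids A and B, against 0.556% (0.548 to 0.563) and 0.495% (0.487 to 0.502) in haploids A and B. These intervals cover counting error only. As a check of the mating type, the a-specific receptor gene STE2 had at least 454 reads in every library, and the alpha-specific genes MFALPHA1, MFALPHA2 and STE3 had at most 2, 13 and 32 reads. Levels below are CPM, reads per 1000000, scaled with edgeR's TMM factors, which set most genes to equal levels between libraries. They are relative to the rest of the library, so less RNA per cell and fewer cells that express a gene cannot be told apart.

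Between ploidies the ergosterol genes differed by small amounts, and mostly to the same side. Of the 10 genes, 9 had a lower TMM-scaled level in the tetraploid than in the haploid of both pairs, against 33.7% of the 5680 genes tested and 52.1% of those with a mean of at least 500 reads, and ERG6 had a higher level in the tetraploid in both. The median log2 fold change, tetraploid over haploid, was -0.26 for the 10 genes and 0.01 for all genes tested, and the 10 values ran from -0.41 for ERG1 to 0.21 for ERG6. The test was edgeR's quasi-likelihood F test, blocked by pair, with p-values adjusted over all genes tested by the Benjamini-Hochberg method and a call at an adjusted p under 0.05. It called 1 of the 10, ERG1, lower and 0 higher. DESeq2 also called ERG1 alone lower, beside 133 of the 5680 genes tested. With limma-voom 4 were called lower (HMG1, ERG25 and ERG3 in addition), beside 369 of the 5680 genes tested, and both tools called 0 of the 10 higher. At an unadjusted p under 0.05 edgeR's test gave 5 lower and 0 higher. At that unadjusted p, 14.2% of all genes tested and 29.1% of those with a mean of at least 500 reads were lower. Over all genes tested, edgeR's test called 5.35% lower and 2.52% higher, and with 1 member called the share is no result about the group. The sign of most of these values depends on the scaling. When libraries were scaled by total counts on ORFs, the median of all genes moved to 0.30 and that of the 10 genes to 0.03, 4 of the 10 were below 0 and 9 were below the median of all genes, and ERG1 was no longer called. The distance of the members' median below that of all genes was 0.27 under TMM factors and 0.27 under total counts. A change of scaling moves all genes of a library alike, so this distance and the 9 below the median could hardly change. Their staying the same is no further result.

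The 10 genes are also abundant, and under TMM scaling abundant genes as a whole lay lower in tetraploids. Of the 10, 9 averaged between 909 and 5314 reads per library and HMG2 averaged 156.0. Among the 726 tested genes with a mean of at least 500 reads, a limit chosen after the values were seen, the median log2 fold change was -0.10, with 65.0% below 0 and 14.0% called lower. The part of abundance in the values of the ergosterol genes was not tested.

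**Figure D1:**
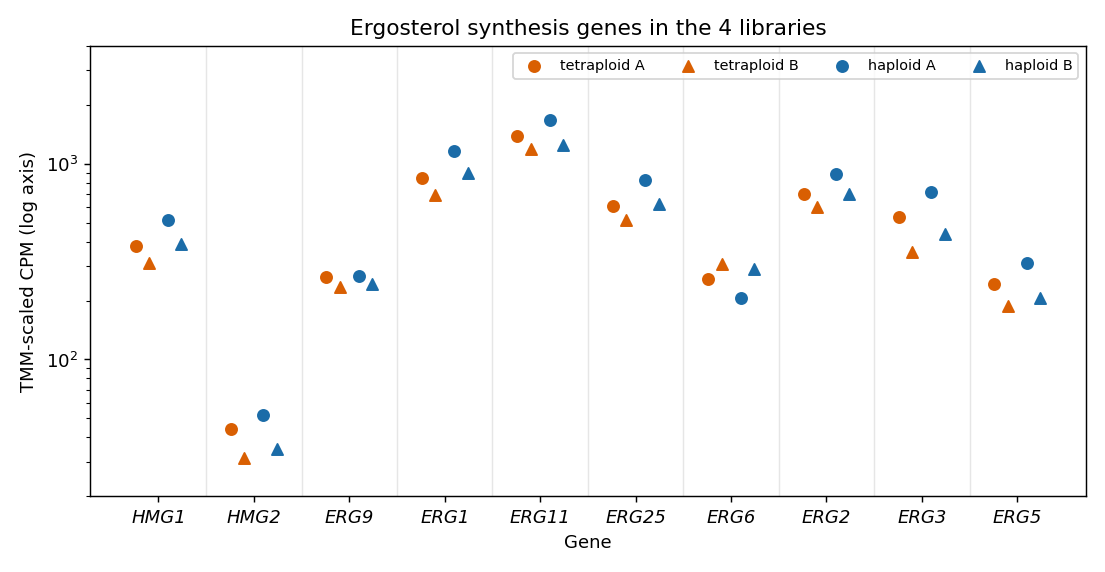
TMM-scaled CPM (log axis) of the 10 ergosterol genes in tetraploid A and B and haploid A and B, 1 point per library. For 9 genes haploid A has the highest and tetraploid B the lowest value. For ERG6 haploid A, at 205 CPM, is the lowest and tetraploid B, at 308 CPM, the highest.

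HMG1 and HMG2 encode the 2 isozymes of HMG-CoA reductase, the rate-limiting enzyme that makes mevalonate. HMG1 had 378 and 313 CPM in tetraploids A and B, against 514 and 389.7 CPM in haploids A and B. Both tetraploid libraries were below both haploid libraries, and the log2 fold change of -0.38 (standard error 0.12, edgeR adjusted p = 0.0614) missed the threshold. HMG2 had 44.2 and 31.3 CPM in tetraploids A and B, from 188 and 150 reads, against 51.9 and 34.9 CPM in haploids A and B, from 163 and 123 reads. The ploidies overlapped, and the log2 fold change of -0.20 had a 95% interval of -0.51 to 0.12. The ratio of HMG1 to HMG2 reads, which no scaling factor touches, was 8.56 and 9.98 in tetraploids A and B and 9.90 and 11.2 in haploids A and B. The genes are paralogs, but their R64 coding sequences share 0 of the 3130 stretches of 36 bases in HMG1, so that reads of this length could be placed on 1 of them.

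ERG9 encodes squalene synthase, which commits farnesyl diphosphate to sterols, and ERG1 encodes squalene epoxidase, the next step and the first to need oxygen. The ERG9 levels of 264 and 236 CPM in tetraploids A and B stood beside 266 and 242 CPM in haploids A and B. This gene differed least, with a log2 fold change of -0.03 and a 95% interval of -0.28 to 0.23. ERG1 had 846 and 689 CPM in tetraploids A and B, against 1157 and 895 CPM in haploids A and B. This was 768 ± 111 CPM in tetraploids and 1026 ± 185 CPM in haploids (SD, n = 2 each), with no overlap between the ploidies. ERG1 fell in tetraploids by 0.41 on the log2 scale (standard error 0.12, edgeR adjusted p = 0.0437), a fold of 0.750, and pair A gave -0.45 where pair B gave -0.38. The call was lost without the block (-0.42, adjusted p = 0.581), with no filter on low counts (-0.40, adjusted p = 0.112), with total counts (-0.13, adjusted p = 0.379), with the study's library totals (-0.05, adjusted p = 0.838) and with any 1 library left out, also with no block (-0.59 without haploid B, -0.57 without tetraploid A, -0.28 without tetraploid B and -0.22 without haploid A). Over all alternatives run, its adjusted p lay between 0.0163 and 0.999.

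ERG11 and ERG25 act on lanosterol and the sterols after it. Erg11 is the cytochrome P450 that takes the first methyl group off lanosterol, and Erg25 is the methyl oxidase that starts the removal of the next ones. ERG11 had 1384 and 1185 CPM in tetraploids A and B, against 1682 and 1253 CPM in haploids A and B. The tetraploid A level was above that of haploid B, and the log2 fold change of -0.18 had a 95% interval of -0.44 to 0.08. The ERG25 levels were 605 and 513 CPM in tetraploids A and B, against 828 and 623 CPM in haploids A and B, with both tetraploids below both haploids. The log2 fold change of ERG25 was -0.37 (standard error 0.12, edgeR adjusted p = 0.0710), close to that of HMG1 and short of the threshold.

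The last 4 genes act late, on the side chain and the rings. Erg6 is the methyltransferase of the side chain, Erg2 the isomerase that moves a ring double bond, Erg3 the desaturase of the ring, and Erg5 a cytochrome P450 that desaturates the side chain. ERG2 had 704 and 603 CPM in tetraploids A and B, against 888 and 701 CPM in haploids A and B (log2 fold change -0.28, edgeR adjusted p = 0.162). ERG3 had 536 and 354 CPM in tetraploids A and B, against 715 and 439 CPM in haploids A and B (log2 fold change -0.36, edgeR adjusted p = 0.0707). For ERG5 the levels were 244 and 188 CPM in tetraploids A and B, against 310.4 and 206 CPM in haploids A and B (log2 fold change -0.24, edgeR adjusted p = 0.234). In each of these 3 genes the tetraploid was below the haploid of its own pair, while tetraploid A was above haploid B. Of the 10 genes, 3 (HMG1, ERG1 and ERG25) had both tetraploids below both haploids, and over all genes tested this was so for 20.5%, and for 29.8% of those with a mean of at least 500 reads.

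ERG6 went the other way. It had 259 and 308 CPM in tetraploids A and B, from 1102 and 1473 reads, against 205 and 288 CPM in haploids A and B, from 643 and 1016 reads. The log2 fold change was 0.21 (95% interval -0.05 to 0.47, edgeR adjusted p = 0.30), with 0.34 in pair A and 0.09 in pair B, so that it did not pass the test. When libraries were scaled by total counts, ERG6 was called higher, at a log2 fold change of 0.50 (edgeR adjusted p = 0.0225). Under that scaling 1168 of the 5680 genes tested were called higher, and the median of all genes was 0.30. Without haploid A, and with no block, its log2 fold change was -0.03. The share of ERG6 in the reads of the 10 genes, which needs no scaling, was 4.92% (95% Wilson interval 4.64 to 5.21) in tetraploid A and 6.96% (6.63 to 7.31) in tetraploid B, against 3.10% (2.87 to 3.34) in haploid A and 5.69% (5.36 to 6.03) in haploid B. It was larger in the tetraploid of each pair, but haploid B was above tetraploid A. Its ratio to ERG3, the gene that differed most between the pairs, was 0.483 and 0.869 in tetraploids A and B and 0.287 and 0.656 in haploids A and B.

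**Figure D2:**
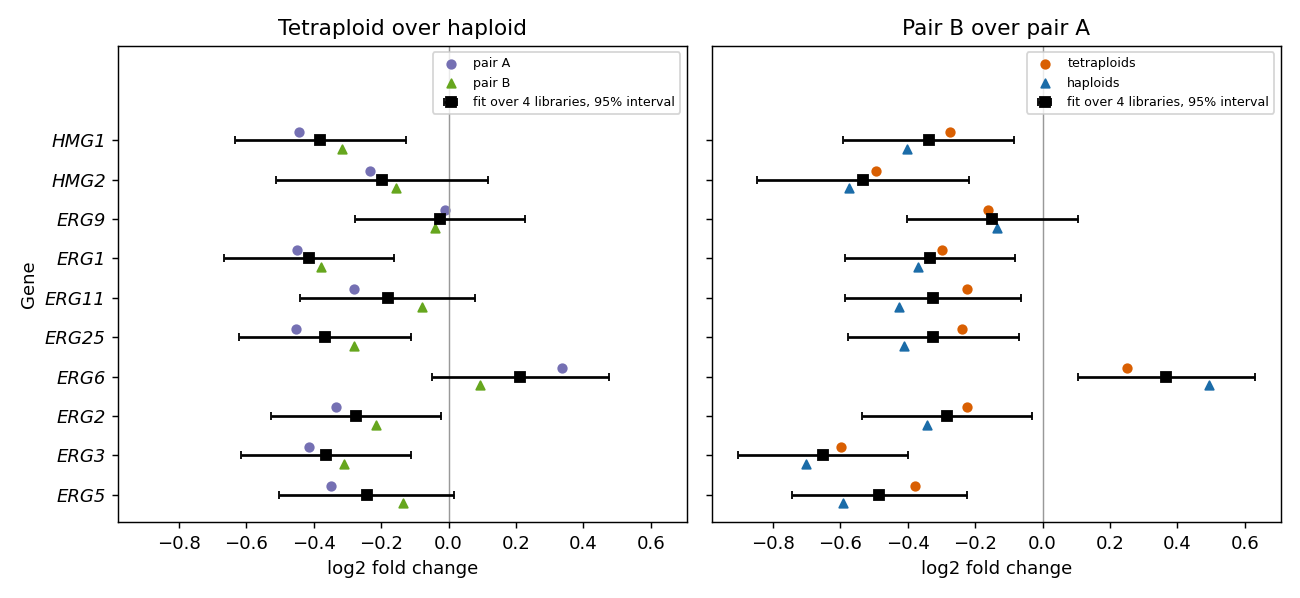
Log2 fold changes of the 10 ergosterol genes between ploidies (left, tetraploid over haploid) and between culture pairs (right, pair B over pair A), with squares for the edgeR fit over 4 libraries, bars for its 95% interval, and circles and triangles for the single comparisons within a pair or ploidy. On the left 9 genes lie below 0, from -0.41 to -0.03, and on the right the same 9 lie below 0, from -0.65 for ERG3 to -0.15 for ERG9, with ERG6 at 0.37.

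The ergosterol genes also differed between the culture pairs. The labels name the pairs only by letter and do not say what set them apart. In the same edgeR fit, the pair coefficient gave a median log2 fold change, pair B over pair A, of -0.33 for the 10 genes and 0.01 for all genes tested. HMG2, ERG3 and ERG5 were called lower in pair B and 0 of the 10 were called higher, against 6.34% and 3.15% of all genes tested. DESeq2 and limma-voom also called 0 higher. At an unadjusted p under 0.05, 8 of the 10 were lower in pair B, against 13.4% of all genes tested and 30.9% of those with a mean of at least 500 reads, and 1, ERG6, was higher. Among the 726 tested genes with a mean of at least 500 reads, 18.2% were called lower in pair B. ERG3 was lower in pair B by a log2 fold change of -0.65 (standard error 0.12, edgeR adjusted p = 0.00310), with -0.60 between the tetraploid and -0.70 between the haploid libraries. ERG5 had -0.48 (adjusted p = 0.0214) and HMG2 -0.53 (adjusted p = 0.0349) in the same edgeR test. ERG6 was again the exception, with 0.37 and an adjusted p of 0.0747. Both libraries of pair B lay below both of pair A for 6 of the 10 genes, against 19.7% of all genes tested and 33.3% of those with a mean of at least 500 reads. The 3 calls rest on the block design: with pair alone in the model, edgeR's test called 0 of the 10, and ERG3 had an adjusted p of 0.463. None of the 3 was called with any 1 library left out and no block, where ERG3 ran from -0.86 without tetraploid A to -0.44 without haploid A. In DESeq2, with no filter on low counts and with total counts, ERG3 alone was called lower, and with total counts ERG6 was called higher. Of all genes tested, DESeq2 called 166 lower and the fit with no filter 125 of 6348. Total counts gave 130 lower and 533 higher.

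The order of the 4 libraries was much the same from gene to gene. In 9 of the 10 genes haploid A had the highest and tetraploid B the lowest TMM-scaled level, against 18.7% of all genes tested and 37.7% of those with a mean of at least 500 reads. These ends restate the comparisons above and are no further result. The 9 genes were lower in the tetraploid of each pair and in pair B within each ploidy. In 6 of the 10 the full order was haploid A, tetraploid A, haploid B, tetraploid B, against 9.68% of all genes tested and 20.8% of those with a mean of at least 500 reads. ERG6 had the reverse ends, with haploid A lowest and tetraploid B highest. Tetraploid over haploid, the median log2 fold change of the 10 genes was -0.34 within pair A. Within pair B, which holds no haploid A library, it was -0.19, with 9 of 10 below 0 in each pair. Fits with a library left out have no block, so that the difference between the pairs enters their ploidy values. In them the median was -0.0029 without haploid A and -0.10 without tetraploid B, and -0.49 without haploid B and -0.46 without tetraploid A, and how far each library carries the ploidy difference cannot be told apart from the pairs. Haploid A also had the lowest TMM factor, 0.840, against 1.03 in tetraploid A, 1.19 in tetraploid B and 0.975 in haploid B.

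**Figure D3:**
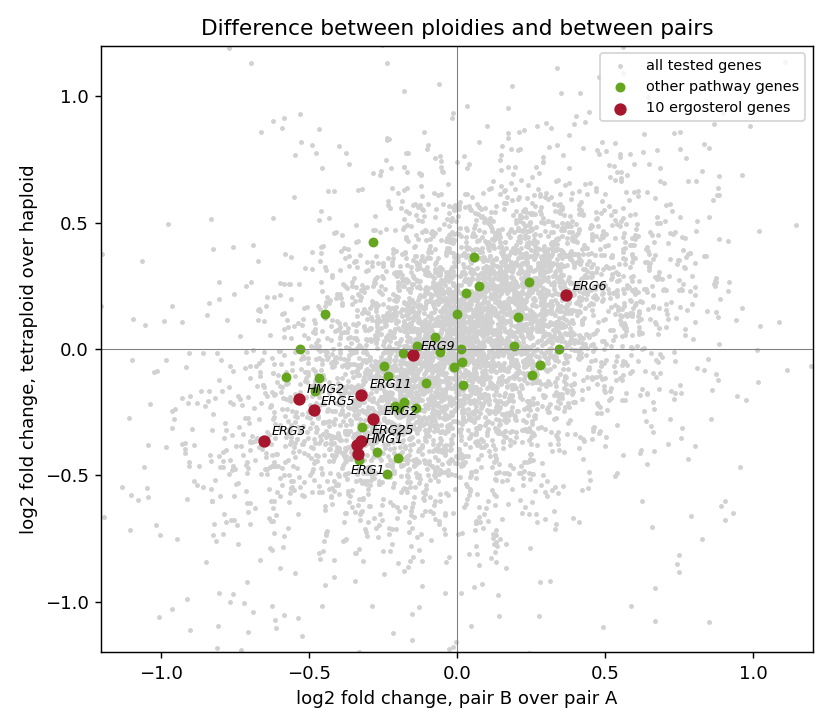
Log2 fold change between ploidies (vertical axis, tetraploid over haploid) against that between pairs (horizontal axis, pair B over pair A), for the 10 ergosterol genes (red), 36 other genes of sterol and isoprenoid metabolism (green) and all 5680 tested genes (grey, some outside the axes). Of the red points, 9 lie in the lower left corner and ERG6 alone in the upper right.

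Levels per kilobase of coding sequence (TMM-scaled CPM per kilobase, with lengths from R64) let the genes be ranked against each other. ERG2 was highest with a mean over the 4 libraries of 1082 and a range of 902 to 1328. ERG11 followed with 864 (744 to 1056), then ERG25 with 690.5 (552 to 890) and ERG1 with 601 (462 to 776), and ERG3 had 466 (323 to 651). These first 5 kept the same order in all 4 libraries, although the ranges of neighbours overlap. ERG6 came next at 230.0 (178 to 267), below the lowest ERG3 value. ERG9 had 189 (177 to 199), ERG5 had 147 (116 to 192) and HMG1 had 126 (98.8 to 163), and the ranges of these neighbours overlap as well. ERG6 was above ERG9 and ERG5 in 3 libraries and below both in haploid A. HMG2 was lowest at 12.9 (9.99 to 16.6), far below HMG1 in every library.

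The rest of the pathway was followed in a list of 37 other genes, of which 36 were analysed here, and all 36 passed the filter. Their median log2 fold change, tetraploid over haploid, was -0.07. Of the 36, 23 (63.9%) were below 0, against 48.9% of all genes tested and 65.0% of those with a mean of at least 500 reads. In both pairs 17 (47.2%) were below 0, against 33.7% of all genes tested and 52.1% of those with a mean of at least 500 reads. In edgeR's test 1 of the 36 was called lower, 0 were called higher (also 0 in DESeq2 and limma-voom), and at an unadjusted p under 0.05 there were 5 lower and 0 higher. The 1 call is 2.78% of the list, against 5.35% of all genes tested, and the 5 are 13.9%, against 14.2%. The called gene was ERG26, a sterol dehydrogenase that works with Erg25 in removing sterol methyl groups. It had 176 and 168 CPM in tetraploids A and B, against 259.7 and 207 CPM in haploids A and B. It fell by 0.43 on the log2 scale (standard error 0.12, edgeR adjusted p = 0.0443), and the call was lost without the block (-0.44, adjusted p = 0.529), in DESeq2 (-0.45, adjusted p = 0.123), with no filter on low counts (-0.42, adjusted p = 0.123), with total counts (-0.15, adjusted p = 0.362), with the study's library totals (-0.07, adjusted p = 0.777) and with any 1 library left out and no block (-0.60 without haploid B to -0.27 without haploid A).

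By role, the 7 other genes of the mevalonate and farnesyl diphosphate steps had a median of -0.05 with 0 called, and the 7 other genes after squalene had a median of -0.17 with 1 called. The 3 electron and heme partners of the enzymes, the 4 genes of reductase turnover, the 5 genes of sterol ester storage, the 2 sterol importers and the 3 genes of isoprenoid branches had 0 called in either direction, and 3 of these genes were lower at an unadjusted p under 0.05. The ends of the list were HRD1, a ubiquitin ligase that degrades the Hmg2 protein, at -0.49 (95% interval -0.87 to -0.12, edgeR adjusted p = 0.0958), and PDR11, a sterol importer, at 0.42 (95% interval -0.01 to 0.86, edgeR adjusted p = 0.212). Both were named after their values were seen. Between the pairs, 3 of the 36 were called lower in pair B and 0 higher in the same edgeR test: ERG4, the last enzyme of the pathway (-0.58), ERG28, a scaffold of the demethylation complex (-0.48), and ARE2, a sterol acyltransferase (-0.47). These are 8.33% of the list, near the 6.34% of all genes tested.

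None of the 5 transcription factor genes on the list passed the test in edgeR. UPC2, a zinc cluster activator of ERG genes, had 27.0 and 20.7 CPM in tetraploids A and B, against 20.4 and 25.3 CPM in haploids A and B. Tetraploid over haploid, UPC2 had a log2 fold change of 0.41 in pair A but of -0.29 in pair B, and of 0.05 in the fit (edgeR adjusted p = 0.910). ECM22, its paralog, had 44.2 and 41.0 CPM in tetraploids A and B, against 40.2 and 44.8 CPM in haploids A and B (log2 fold change -0.0012, 95% interval -0.32 to 0.31). HAP1, the heme-responsive activator, had 61.3 and 44.7 CPM in tetraploids A and B, against 69.2 and 61.03 CPM in haploids A and B (log2 fold change -0.31, edgeR adjusted p = 0.182). For the hypoxic repressors the log2 fold changes were 0.14 for ROX1 (edgeR adjusted p = 0.616) and 0.13 for MOT3 (edgeR adjusted p = 0.621). HAP1 alone of the 5 had an unadjusted p under 0.05.

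**Figure D4:**
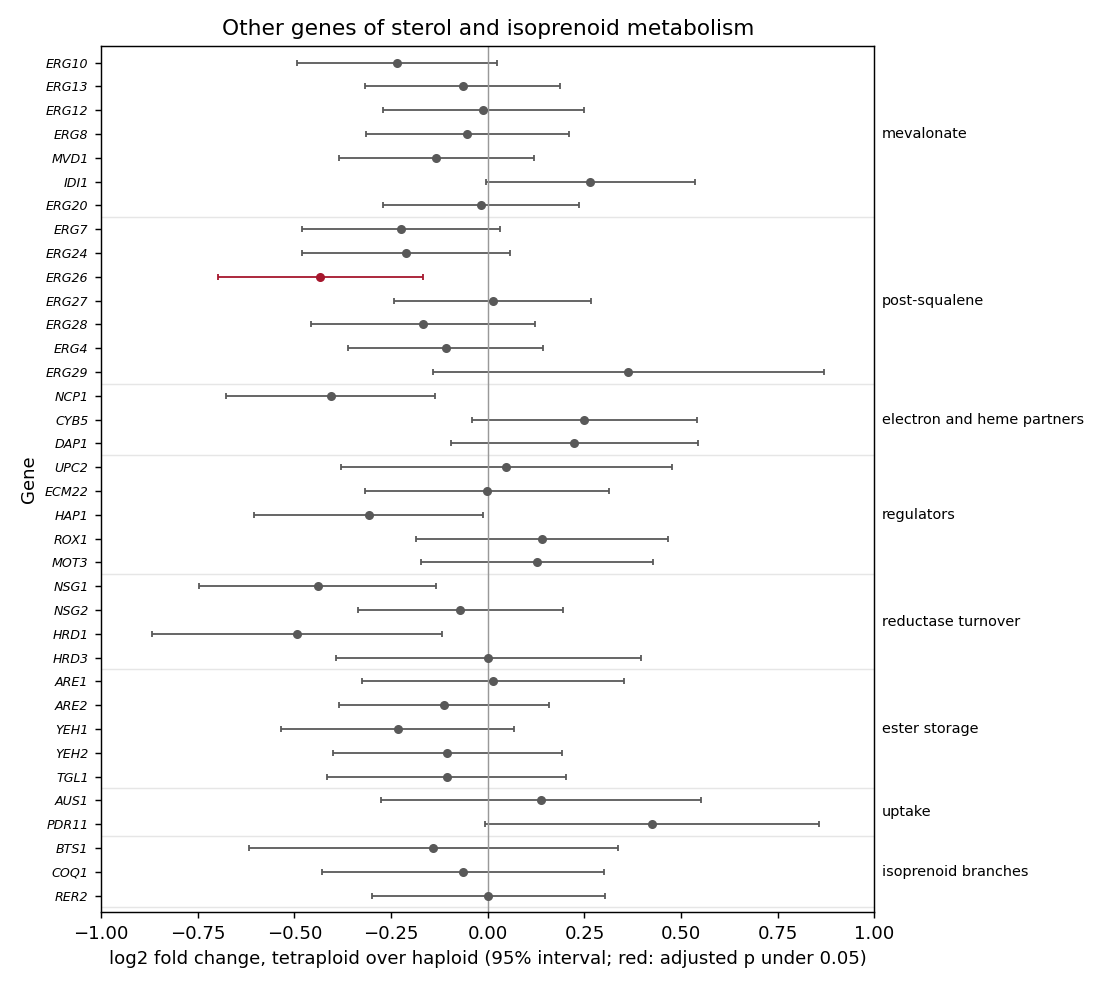
Log2 fold changes, tetraploid over haploid, of the 36 other genes of sterol and isoprenoid metabolism, grouped by role, with 95% intervals from the edgeR fit. ERG26 (red, -0.43) is the 1 gene with an adjusted p under 0.05, and 23 of the 36 points (63.9%) lie below 0, against 48.9% of all genes tested.

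Outside the pathway, genes were ranked by how closely their 4 log2 CPM values, centred on their own mean, followed the mean profile of the 10 genes. That profile was 0.02 in tetraploid A and -0.24 in tetraploid B, against 0.28 in haploid A and -0.06 in haploid B. Among 4391 genes with a mean of at least 50 reads, the closest were ALE2 (Euclidean distance 0.0205 over the 4 libraries), PET8 (0.0304), GLT1 (0.0394), RPL16B (0.0436) and MMT2 (0.0465). RPL16B has a close paralog, so its count of uniquely mapped reads is uncertain. Each was closer to the profile than any of the 10 genes themselves, of which ERG2 (0.0602) and ERG11 (0.0753) came nearest and ERG6 (0.822) lay farthest. With 4 libraries, such a distance describes a shared order of the samples and no more.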

How the data were processed

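The authors sequenced poly(A) RNA for 36 cycles on an Illumina Genome Analyzer 2, aligned them to the genome of Σ1278b by Bowtie, and deposited raw counts of uniquely mapped reads per ORF, both strands together and without normalization. Antisense or overlapping transcripts can therefore share reads; in R64, 0 annotated genes overlap the 10 genes. ORFs missing from a library were set to 0. Here, a gene was tested if each pair had a library with 15 reads of it or more, with edgeR 4.0.16 (quasi-likelihood test, TMM factors, pair as a block) in R 4.3.3, with Benjamini-Hochberg adjustment over the 5680 genes tested. The pairs are those the study compared, and same-pair libraries deviated together (r = 0.53 across genes, which are not independent). A standard error is the log2 fold change divided by the square root of F. The script was tested on simulated data. Alternatives used DESeq2 1.42.0, limma-voom (limma 3.58.1), RLE factors, total counts, the study's library totals, other filters, a correction for GC content and coding length, no block, and each library left out.

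The genes and lists were chosen with earlier results of these data known. The genes named are all 10 members, the pathway genes called (the largest changes first, 10 at most), the regulators UPC2, ECM22, HAP1, ROX1 and MOT3, and the 5 genes with the closest profile; others are said to be named after their values were seen or were called between the pairs. Names, lengths and GC content come from R64, another strain than the one mapped to, which names 5754 of the 6348 ORFs. No coordinates, promoter motifs or sequences are given for that reason. With 2 cultures of 1 strain per ploidy, the blocked p-values rest on how far the ploidy difference varied between the 2 pairs. That variance was estimated in part from all genes tested together, and no p-value covers differences between independently made strains.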

Additional observations from a re-analysis of the deposited data

How the results depend on the processing

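Each count of calls moved under some alternative. In tetraploids, members called lower (1 in the reported fit) numbered 0 with no replicate block, total counts, the study's library totals or no filter, 2 with at least 15 reads in all 4 libraries (HMG1 in addition), and 4 with limma-voom or RLE factors (HMG1, ERG25 and ERG3 in addition). Of all genes tested, 304 of 5680 were called lower in the reported fit, 380 of 5368 with the stricter filter, 369 with limma-voom and 490 with RLE factors. They numbered 18 with no block, 115 under total counts, 103 under the study's totals and 87 of 6348 with no filter. Members called higher (0) numbered 1, ERG6, under total counts and under the study's totals. Other pathway genes called lower (1) numbered 0 with no replicate block, DESeq2, total counts, the study's totals or no filter, 2 with the GC and length correction, and 3 with RLE factors or the stricter filter, and those called higher (0) numbered 4 under total counts and 8 under the study's totals. Of all 5680 genes tested, 143 were called higher in the reported fit, 1168 under total counts and 2098 under the study's totals. DESeq2 called 133 lower, and the GC and length correction 363 of 5297. In pair B, members called lower (3) numbered 0 with pair alone in the model or under the study's totals and 1 with DESeq2, total counts or no filter, and members called higher (0) numbered 1 under total counts, the study's totals and the stricter filter. All genes called lower there numbered 360 in the reported fit, 7 with pair alone and 182 under the study's totals. They numbered 166 with DESeq2, 130 under total counts and 125 of 6348 with no filter. All genes called higher numbered 179 in the reported fit, 533 under total counts, 804 under the study's totals and 252 of 5368 with the stricter filter. Fits with a library left out had no block, since 3 libraries leave no residual degree of freedom with it, and assume that the lone library varies like the other ploidy, and the difference between the pairs enters their ploidy values. In them each of these counts was 0, and the members' median ran from -0.49 to -0.0029.

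Scaling moved every value together. The median of all genes was 0.30 under total counts and 0.38 under the study's totals, and that of the members 0.029 and 0.11. The distance between them stayed at -0.27, which a change of scaling alone can hardly move. Signs turned under total counts and the study's totals for ERG11 (0.11 and 0.18), ERG2 (0.013 and 0.089), ERG5 (0.045 and 0.12), ERG9 (0.26 and 0.34, and between pairs 0.061 and 0.034), HMG2 (0.091 and 0.16) and ECM22 (0.29 and 0.37), and under the study's totals alone for ERG3 (0.0012) and HAP1 (0.054). ECM22, at -0.0012, also turned with no replicate block (0.00075), no filter (0.0083), the stricter filter (0.0053) and the GC and length correction (0.056). With each library left out, the ploidy values that changed sign ran from -0.39 to 0.036 (ERG11), -0.70 to 0.019 (ERG3), -0.52 to 0.066 (ERG5), -0.025 to 0.47 (ERG6), -0.11 to 0.050 (ERG9), -0.47 to 0.11 (HMG2), -0.076 to 0.083 (ECM22), -0.036 to 0.31 (MOT3) and -0.14 to 0.24 (UPC2). HMG1, ERG1 and ERG25 stayed below 0 in every alternative run, but under the study's totals only at -0.016, -0.050 and -0.0016. The causes were not tested. HMG2, with a mean of 156.0 reads, had the widest interval of the members.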
